A study of Mus musculus with 2 samples.

Results

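The S-phase genes described here are 39 genes whose transcripts accumulate while DNA is copied. They were taken by symbol from a standard list for scoring the cell cycle and make up 39 of the 32285 genes listed in the count matrices. All 39 were detected in each library. By role, 8 encode parts of the replicative helicase or proteins that load it, 8 encode polymerase subunits, the sliding clamp and its handling or flap nucleases, 3 supply nucleotides, 9 handle histones and chromatin, 8 protect or repair the fork, and 3 are cycle regulators or sit at the centromere.

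The study profiled murine thymic epithelial cells (TECs), the epithelium that trains T cells, by droplet scRNA-seq 15 days after sublethal total body irradiation and in age-matched controls. Each condition is 1 library made from the pooled cells of 3 wild-type female C57BL/6 mice, sorted as CD45- TER119- EPCAM+ cells, so there is no replicate, no test and no p-value. Ranges of levels and shares are 95% intervals that cover counting error only. The range of a ratio runs between opposite ends of such intervals and is thus wider than a 95% counting interval of the ratio. Within or beyond counting error means that this wider range holds or excludes equal values. A ratio called within counting error can thus still have a 95% counting interval that excludes equal values. UMIs are taken as independent, so ranges of levels and ratios leave out variation between cells and between mice. A ratio beyond counting error can thus still lie within the spread of cells, which was not measured. The sources disagree on which library is which. The sample labels call the library with 3233 kept cells irradiated and the one with 5070 kept cells control, whereas the names under which the matrices were deposited and the cell numbers in the study's text say the opposite. The libraries are therefore named by their kept cells, the 3233-cell (smaller) and the 5070-cell (larger) library, and every ratio between them is larger over smaller and has no direction of treatment. The sources also disagree on age, with 9 weeks as the labelled age and 4 weeks in the labels' protocol. The study's methods go with 9 weeks, since the age at irradiation given there and the 15 days come to about that.

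The libraries held 51586327 and 75542631 unique molecular identifiers (UMIs, counted transcript molecules) in kept cells, with medians of 13412 and 13003.5 per cell. The S-phase genes took 48271 and 80013 of these, or 0.094% and 0.106%. The libraries shared 17 barcode sequences, 5 of them among kept cells. All 8 cTEC, all 8 Aire+ mTEC and all 6 Ccl21a+ mTEC markers were detected in both, and the summed level of 15 thymocyte markers was 1.98 and 2.50 UMIs per 10000, highest in the cluster C11 described below.

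Before a cell copies its DNA, E2F transcription factors switch on the genes for the licensing and firing of origins, for nucleotides and for new histones, and the same genes are turned down again in G2. A helicase of MCM proteins opens the duplex, polymerases copy it behind a ring of PCNA, and chromatin is rebuilt on both daughter strands. In the thymic medulla this programme marks transit-amplifying mTECs, dividing progenitors that give rise to Aire-expressing cells and their descendants.

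Cells were grouped into 14 clusters, C0 to C13, with the 39 genes taken out of the genes used for clustering, while other replication genes were left in. C7 was the one cluster led by mitotic markers that are no S-phase genes, such as Ube2c, Ccnb1, Plk1 and Birc5, and is called dividing. C11 was led by thymocyte genes such as Rag1, Cd8a and Cd3e and is kept apart. The remaining clusters are called resting because mitotic genes did not lead them, which is a name and not a measurement: C6 among them held many S-phase transcripts and is shown on its own throughout.

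Summed over the 39 genes, C7 had the highest level, with 30.5 UMIs per 10000 in the smaller library (30.1 to 31.0) and 26.8 in the larger (26.5 to 27.1). With C11 set aside, C6, led by Matn1, Mybpc1 and Tead2 with much Ccl21a, followed among the clusters of 100 or more cells over both libraries at 16.3 (15.9 to 16.7) and 17.5 (17.2 to 17.8). The other resting clusters of this size lay far below. The lowest was C3, at 3.95 and 4.09, and the highest was C5, with the most Aire, at 6.92 and 7.63. The cTEC-like C8 had 4.52 and 4.48, and the tuft-like C9 had 5.24 and 5.255. C3 was led by enterocyte genes such as Muc13 and Lypd8. It also had the highest summed level of the 8 Aire+ mTEC markers, 266 and 278 UMIs per 10000. The 8 enterocyte or microfold markers were highest in C3 in the smaller library and in C10 in the larger.

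Clusters outside this order were small or mixed. C11 held 20.8 (19.98 to 21.7) and 12.8 (12.3 to 13.2) UMIs per 10000 on 36 and 110 cells, beside a thymocyte marker level of 59.6 and 55.4 and a level of the cTEC marker Psmb11 of 10.6 and 11.6. The thymocyte level in C7 was 0.203 in each library. C13, with cilium genes, held 11.4 (9.93 to 13.0) and 9.84 (8.72 to 11.1), on 7 and 14 cells.

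**Figure D1:**
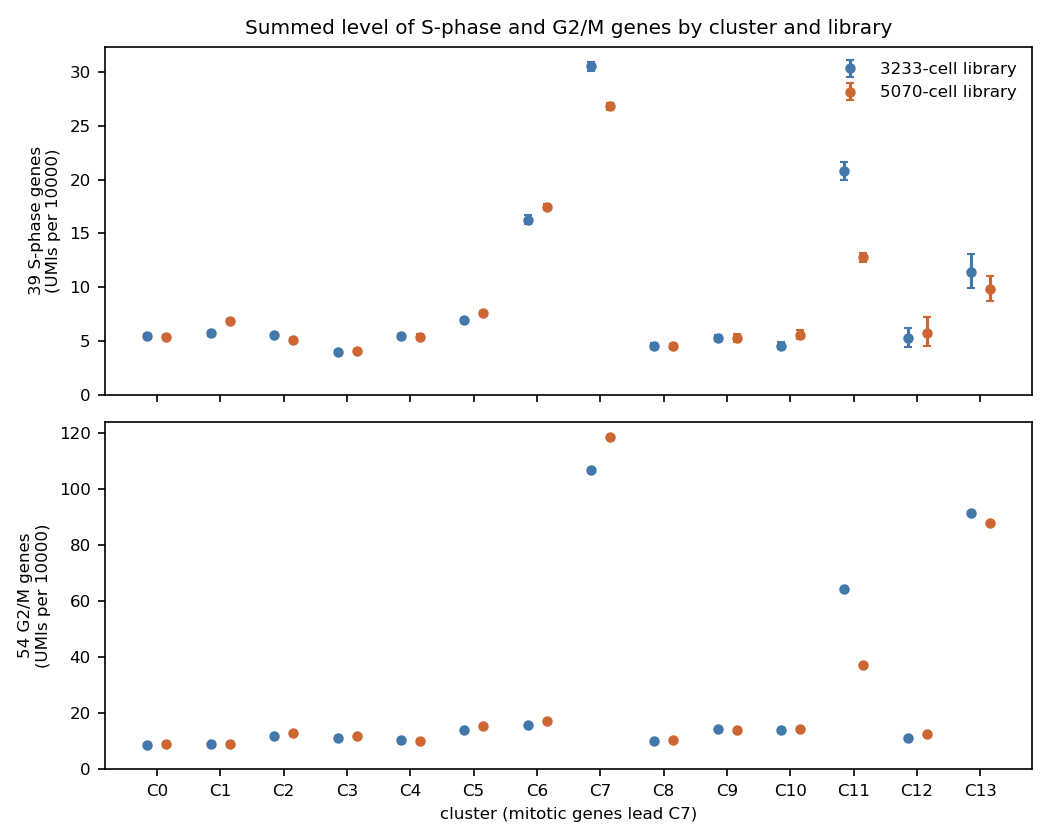
Summed level of the 39 S-phase genes (upper panel) and of 54 G2/M genes (lower panel) in UMIs per 10000, for each cluster and library, with 95% counting intervals on the S-phase points. C7 is highest in both panels, whereas C6 stands out in the upper panel, at 16.3 and 17.5, and not in the lower, at 15.6 and 17.1.

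The dividing cluster over the resting clusters gave a log2 ratio of the summed level of 2.28 (2.25 to 2.32) in the smaller library and 1.90 (1.87 to 1.93) in the larger. In the smaller library, 36 of 39 S-phase genes were at least 2-fold higher in C7, against 5.72% of all genes with at least 100 UMIs, and in the larger 34 of 39, against 4.64%. The median log2 ratio of the S-phase genes was 2.56 and 1.97, whereas that of all genes was -0.42 and -0.35. Casp8ap2, Pold3 and Ubr7 were under 2-fold in both libraries, and Cdca7 and Ung in the larger alone, but the counting range lay above 0 for 39 of 39 genes in each, against 20.2% and 21.1% of all genes. Of 46 other replication genes that are not on the list, 39 of 44 with enough UMIs in the smaller and 39 of 45 in the larger library were at least 2-fold higher. These shared in forming C7, so their count is a description of the cluster. C7 was also picked by its mitotic genes. Many S-phase genes were thus bound to be high in it, and their counts describe it too. With dividing cells taken instead as all cells with at least 5 thinned G2/M UMIs, the log2 ratio of the summed level was 1.4 and 1.58. That definition took 46.3% and 48.8% of the libraries. Even in the resting C5 the median cell held 5 such UMIs in each library, so it holds many cells outside C7.

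Cells with many S-phase UMIs were few, whereas low counts were widespread. The resting clusters without C6 held 86.3% and 78.0% of the cells and 46.3% and 37.9% of all S-phase UMIs. After each cell was thinned to 4000 UMIs, at least 5 S-phase UMIs were found in 73.2% of C7 cells in the smaller library (66.5 to 79.3) and 76.5% in the larger (72.5 to 80.2). In C6 it was 34.9% (28.5 to 41.8) and 37.3% (33.1 to 41.7). The lowest share, 3.90% and 4.71% in C3, is the level to be read as background. Without thinning the shares were 100% and 99.0% in C7, 81.3% and 81.4% in C6 and 63.2% and 51.4% in C3, so the unthinned values hardly separate the clusters. Of the 165 and 425 cells with at least 10 S-phase UMIs after thinning, C7 held 57.6% (49.7 to 65.2) and 51.8% (46.9 to 56.6). C6 held 23.0% (16.8 to 30.2) and 27.8% (23.6 to 32.3), and C5 held 7.27% (3.81 to 12.4) and 7.76% (5.41 to 10.7). C11, which is much smaller, held 6.06% (2.94 to 10.9) and 4.0% (2.35 to 6.33), and C1 held 2.42% (0.664 to 6.09) and 4.94% (3.08 to 7.45). As a share of the cluster's own cells this was 27.8% and 15.5% in C11 but 3.85% and 6.07% in C5. Most such cells were thus in C7 and C6, while C3, C8, C9 and C10 each held 0. Intervals of their share of the 165 and 425 cells reach up to 2.21% and 0.864%. As a share of the cluster's own cells the interval reaches up to 3.93% and 4.02% in C10.

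Genes of the helicase and its loading were at 6.01 UMIs per 10000 together in C7 of the smaller library and 4.99 in the larger. Mcm4, Mcm5, Mcm6 and Mcm7 encode subunits of the MCM ring that unwinds DNA. Mcm7 was at 1.45 UMIs per 10000 (1.35 to 1.55) in C7 of the smaller and 1.14 (1.08 to 1.20) of the larger library, against 0.234 and 0.269 in the resting clusters without C6. For Mcm6 it was 1.05 and 0.905 against 0.151 and 0.190, and for Mcm5 it was 0.804 and 0.678 against 0.0814 and 0.112. In C6, Mcm4, Mcm5 and Mcm6 were close to their level in C7, with 0.912 and 0.918 for Mcm6, 0.725 and 0.680 for Mcm5 and 0.509 and 0.543 for Mcm4. The log2 ratio of C7 over C6 was thus 0.21 and -0.02 for Mcm6, 0.15 and -0.00 for Mcm5 and 0.08 and -0.25 for Mcm4, with 0 inside each counting range. Mcm7 was higher in C7 in the smaller library, at 0.37 (0.13 to 0.62), and within counting error in the larger, at 0.09 (-0.08 to 0.27). Cdc6, which loads the ring, was higher in C6 than in C7 in both libraries, at 0.120 against 0.113 and 0.123 against 0.0903. The counting range of its ratio held 0 in each library. Cdc45 and Gins2, which complete the active helicase, were 3.45 and 2.76 and 1.94 and 1.54 log2 units higher in C7 than in the resting clusters. Gmnn, the inhibitor that keeps licensed origins from being licensed again, was at 1.32 (1.23 to 1.42) and 1.11 (1.05 to 1.17) in C7, 1.52 and 1.00 log2 units above C6.

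Because E2F sites are known for these genes, the letters of their promoters were searched in the 250 bases before each start site (RefSeq, GRCm38.p6). The E2F-type words TTTCCCGC, TTTCGCGC, TTTGCCGC and TTTGGCGC, on either strand, were found in 10 of 33 promoters of the 29 S-phase genes in the table, or 30.3%, against 1.86% of all 32851 promoters. The genes were Casp8ap2, Cdc6, Cdca7, Dtl, Hells, Mcm5, Mcm6, Mcm7, Pola1 and Uhrf1. The word CCAAT was found in 66.7% of the S-phase promoters against 33.9% of all, and the CHR words TTTGAA and TTCGAA of G2/M genes in 18.2% against 17.1%. A match is a description of the letters and not of binding. Mcm5 and Mcm6 are shown because both genes had high levels in C6 as well as in C7. Their windows lie outside the annotated gene, as do those of Dtl and Pola1. For Mcm5 and Mcm6 the 50 bases after the start site were not found in an annotated transcript of the gene. These start sites were thus not matched to the transcripts. Capitals mark the E2F-type words, of which a pair on opposite strands overlaps in each gene, with another in Mcm6. The window of Mcm5 is chr8:75109259-75109508 on the plus strand and that of Mcm6 is chr1:128359706-128359955 on the minus strand, each written in the direction of the gene.
Mcm5: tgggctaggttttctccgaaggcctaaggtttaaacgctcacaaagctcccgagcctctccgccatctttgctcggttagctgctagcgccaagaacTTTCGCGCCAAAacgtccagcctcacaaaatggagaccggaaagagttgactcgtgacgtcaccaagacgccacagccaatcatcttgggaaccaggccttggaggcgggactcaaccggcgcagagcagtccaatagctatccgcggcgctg
Mcm6: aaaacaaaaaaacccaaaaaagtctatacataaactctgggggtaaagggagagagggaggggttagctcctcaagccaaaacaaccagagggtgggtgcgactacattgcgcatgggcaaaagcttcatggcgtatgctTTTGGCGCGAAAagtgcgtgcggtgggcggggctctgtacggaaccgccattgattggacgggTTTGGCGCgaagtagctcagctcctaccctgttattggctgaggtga

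Among polymerases, the clamp and flap processing, Pcna (chr2:132249162-132253314 on GRCm38, minus strand), the sliding clamp, was at 2.51 UMIs per 10000 (2.38 to 2.64) in C7 of the smaller and 1.86 (1.79 to 1.94) of the larger library. C6 had 1.31 and 1.52 and the remaining resting clusters 0.611 and 0.609. Its level was lowest in C8 among the clusters of 100 or more cells, at 0.485 and 0.4999, so that it was present in every one of them; free RNA in the droplets can add such counts, and its part was not tested. Rfc2, a subunit of the loader that puts PCNA on DNA, had the same order of levels, with 1.48 and 1.496 in C7 against 0.587 and 0.607 in the resting clusters without C6. Fen1, the nuclease that trims Okazaki fragments, was at 0.738 and 0.745 in C7, with a range of 0.67 to 0.811 in the smaller library that holds the larger library's value. Pola1 and Prim1, which make the primer, were 2.73 and 2.39 and 2.77 and 2.44 log2 units higher in C7 than in the resting clusters. Exo1, an exonuclease, and Dscc1, part of another clamp loader, had log2 ratios of 2.98 and 3.20 and of 2.75 and 2.50. Pold3, a subunit of polymerase delta, was the exception, since its highest level was in the tuft-like C9 in both libraries, at 0.389 and 0.419 UMIs per 10000 against 0.288 and 0.256 in C7.

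The 3 genes that supply nucleotides were highest in C7 in both libraries. Tyms, which makes thymidylate, was at 2.26 (2.14 to 2.39) and 2.17 (2.09 to 2.26) UMIs per 10000 in C7, at 0.412 and 0.565 in C6 and at 0.124 and 0.147 in the other resting clusters. Rrm2, the small subunit of ribonucleotide reductase, was at 1.91 (1.80 to 2.03) and 1.619 (1.55 to 1.69) in C7 and at 0.295 and 0.366 in C6. Its log2 ratio of C7 over the resting clusters, 4.65 and 3.89, was the highest of the 39 in both libraries. Rrm1, the large subunit of the same enzyme, had 2.58 and 2.44. In contrast to the MCM genes, all 3 were far lower in C6 than in C7, with log2 ratios of C7 over C6 of 2.46 and 1.94 for Tyms, 2.70 and 2.14 for Rrm2 and 1.56 and 1.52 for Rrm1.

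The 9 histone and chromatin genes held 8.15 and 7.13 UMIs per 10000 together in C7. Uhrf1 (chr17:56303321-56323486 on GRCm38, plus strand), which reads hemimethylated DNA and recruits the maintenance methyltransferase, was at 1.89 (1.78 to 2.003) and 1.622 (1.55 to 1.70) in C7 and at 0.710 and 1.04 in C6. With C11 set aside, among the other clusters of 100 or more cells it was highest in C5, the cluster with the most Aire, at 0.351 and 0.512, while the cTEC-like C8 had 0.0086 and 0.024. C11 had 0.788 and 0.542. Nasp, a histone chaperone, was at 1.65 and 1.51 in C7, and Slbp, which binds the stem-loop of histone mRNA, at 1.61 and 1.41. Slbp was also present at 0.541 and 0.570 in the resting clusters without C6. Atad2, a bromodomain ATPase, was at 1.14 and 1.08 in C7, and Hells, a remodeler of methylated chromatin, at 0.922 and 0.648. Cdca7, the partner of Hells in the same complex, did not follow it: C6 had 0.351 and 0.296 and C7 had 0.198 and 0.171, a log2 ratio of -0.83 and -0.80 whose counting range lay below 0 in both libraries. Its highest level was in C11 in both libraries, at 0.944 and 0.647. Chaf1b, a subunit of the chromatin assembly factor, was 2.56 and 1.89 log2 units higher in C7 than in the resting clusters. Casp8ap2 and Ubr7 were spread over nearly all clusters, with log2 ratios of 0.61 and 0.55 and of 0.43 and 0.60.

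Of the genes that protect and repair the fork, Usp1, a deubiquitinase that acts on PCNA, was at 1.03 and 1.04 UMIs per 10000 in C7 and at 0.278 and 0.263 in the resting clusters without C6. Dtl, which targets replication factors for destruction at the fork, was at 0.608 (0.547 to 0.675) and 0.429 (0.393 to 0.467) in C7. Ung (chr5:114130386-114139323, plus strand), the glycosylase that removes uracil from DNA, was at 0.336 (0.291 to 0.386) and 0.207 (0.182 to 0.234) in C7 and at 0.380 and 0.465 in C6. C6 was the highest cluster for Ung in both libraries, and in the larger the log2 ratio of C7 over C6 was -1.17. Rad51ap1 had the second highest ratio of C7 over the resting clusters in the smaller library, 4.20, and 3.10 in the larger. Tipin and Clspn, of the fork protection complex and its checkpoint, had 2.32 and 1.89 and 2.57 and 2.02. Blm, a helicase for joined strands, and Wdr76 had 1.73 and 1.97 and 1.86 and 1.76. Dtl, Rad51ap1 and Wdr76, as well as Slbp, had their highest level in both libraries not in C7 but in C13, which held 7 and 14 cells. The median C13 cell also held 37 and 30 thinned G2/M UMIs. Wdr76 was at 0.696 and 0.571 there, against 0.230 and 0.218 in C7. Among cycle regulators, Ccne2, a cyclin that starts S phase, was at 0.232 and 0.172 in C7, 3.43 and 2.75 log2 units above the resting clusters. E2f8, a repressor that closes the E2F programme, was at 0.201 and 0.242 in C7, but C4 also held 0.217 and 0.142 and C8 held 0.185 and 0.066, both clusters with a low summed S-phase level. Cenpu, of the inner kinetochore, had 2.94 and 3.05.

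**Figure D2:**
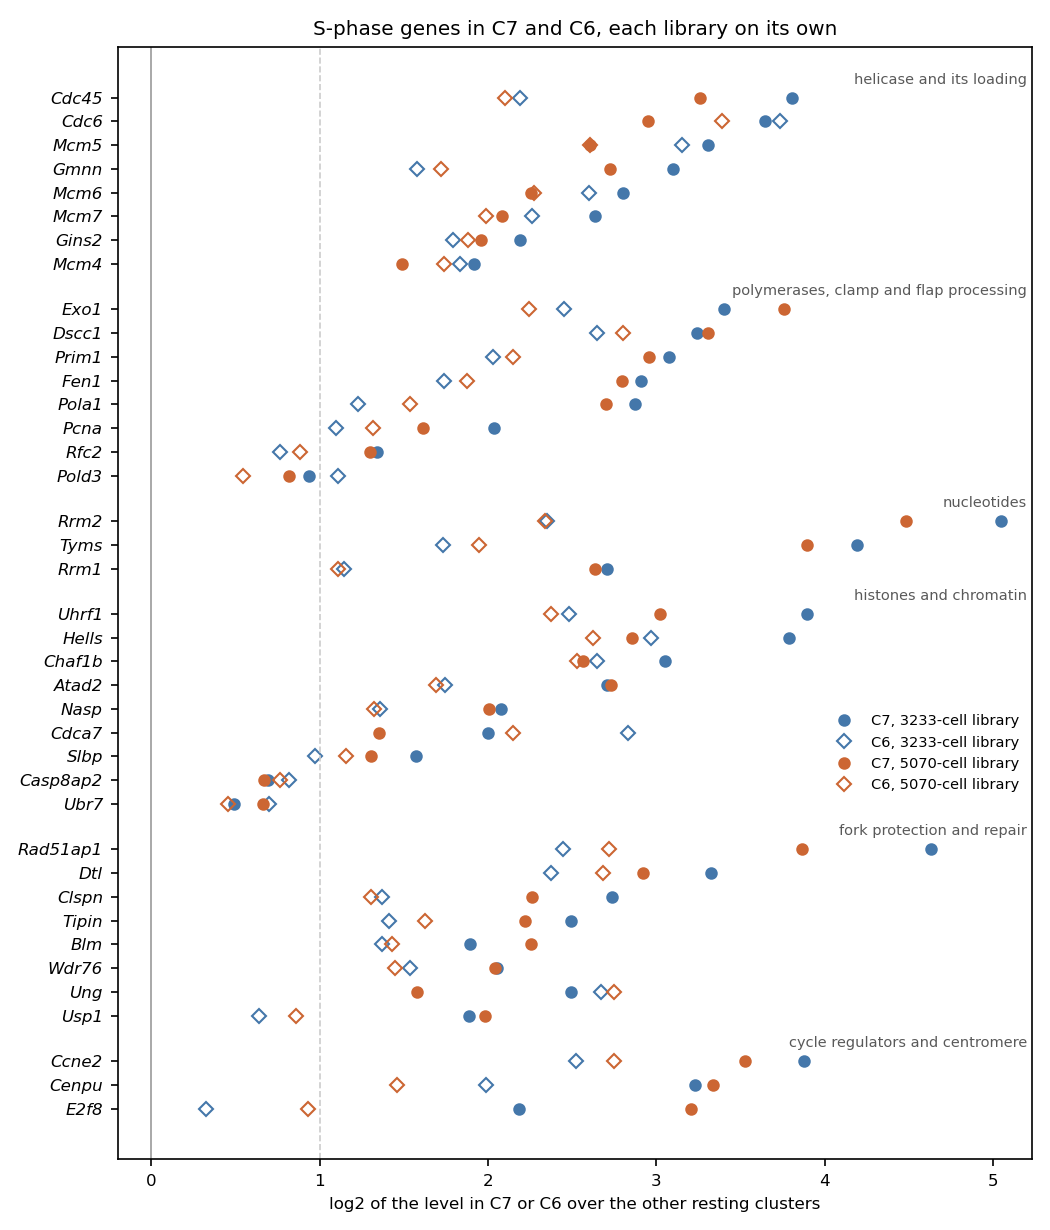
Log2 of the level in C7 (filled circles) and in C6 (open diamonds) over the other resting clusters for each of the 39 genes, by role and library, with a dashed line at a 2-fold difference. Tyms and Rrm2 have C7 points far right of their C6 points, those of Mcm4, Mcm5 and Mcm6 lie close together, and those of Cdca7 stand in the opposite order.

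C6 held more of the S-phase genes than of the mitotic ones. It was picked as the resting cluster with the highest level of the 46 other replication genes, which also shared in forming the clusters. Many S-phase genes were thus bound to be high in it, and the counts below describe the cluster. Against the other resting clusters, 30 of 36 S-phase genes with enough UMIs were at least 2-fold higher in C6 of the smaller library, against 3.19% of all genes, and 33 of 39 in the larger, against 2.93%. The G2/M genes gave 9 of 43 and 18 of 53, also above the share of all genes, and their median log2 ratio was 0.43 and 0.61, against 1.74 and 1.87 for the S-phase genes and -0.18 and -0.17 for all genes. Mki67 was at 0.368 and 0.419 UMIs per 10000 in C6 and at 5.39 and 5.3 in C7, and Top2a, also on the G2/M list, at 0.520 and 0.549 against 6.51 and 7.22. Casp8ap2, Cdc6, Cdca7 and Ung had a higher value in C6 than in C7 in both libraries, beyond counting error in both for Cdca7 and in the larger for Ung. The ratio of C7 over C6 was -0.13 (-0.56 to 0.31) and -0.10 (-0.39 to 0.20) for Casp8ap2 and -0.18 (-0.64 to 0.28) for Ung in the smaller library. Within C6 the genes were unevenly spread over cells, since the median cell held 3 S-phase UMIs after thinning in each library and the highest decile began at 14 and 17. C6 and C7 together held 48.7% and 57.8% of all S-phase UMIs.

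Within C7, the S-phase level fell as the G2/M level rose. C7 cells were put into 4 bins by their thinned UMIs of 54 G2/M genes, of 8 to 29, 30 to 41, 42 to 57 and 58 to 135. The S-phase level over these bins was 41.4, 35.2, 18.7 and 15.8 UMIs per 10000 in the smaller library and 39.6, 32.5, 24.2 and 14.7 in the larger. From the lowest to the highest bin, 38 of 39 genes were lower in the smaller library, the exception being Fen1, and 39 of 39 in the larger. Many of these rest on few UMIs, and among the 22 S-phase genes with at least 100 thinned UMIs in C7 it was 21 and 22, against 49.1% and 50.4% of all 4274 such genes. This order is a description of cells that share a library and has no replicate.

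Genes differed in value in how steeply they fell. Mcm4, Mcm5, Mcm6 and Hells were named for the largest fold over the bins and Fen1, Rfc2, Tyms and Rrm1 for the smallest. The contrast between them was thus fixed by the choice, and several of the ranges overlap. Mcm6 went from 1.60 UMIs per 10000 in the lowest bin to 0.179 in the highest in the smaller library and from 1.60 to 0.388 in the larger, a log2 ratio of 3.16 (1.14 to 5.88) and 2.05 (1.07 to 3.08). Mcm5 had 2.46 (0.77 to 4.52) and 2.17 (1.02 to 3.41), Hells had 2.64 (0.79 to 4.97) and 2.0 (0.78 to 3.32), and Mcm4 had 3.30 (-0.02 to 9.32) and 1.51 (0.15 to 2.97). Pcna had 1.98 (0.90 to 3.16) and 2.13 (1.4 to 2.89). At the other end, Tyms had 0.32 (-0.56 to 1.23) and 0.79 (0.16 to 1.42), Rfc2 had 0.11 (-1.05 to 1.32) and 0.49 (-0.23 to 1.22), Rrm1 had 0.75 (-0.84 to 2.46) and 0.37 (-0.52 to 1.27), and Fen1 had -0.70 (-2.24 to 0.83) and 0.46 (-0.52 to 1.46). Ung had 34, 4, 1 and 0 thinned UMIs over the bins of the smaller library and 32, 11, 2 and 1 over those of the larger, and Ccne2 had 13, 3, 0 and 0 and 24, 12, 5 and 0. The lowest bin was the highest point for 25 genes in both libraries, while E2f8, Rfc2, Rrm1 and Tyms peaked in the next bin in both. Of the 22 genes with enough UMIs it was 14, against 8.89% of all such genes, and 3, against 6.97%.

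**Figure D3:**
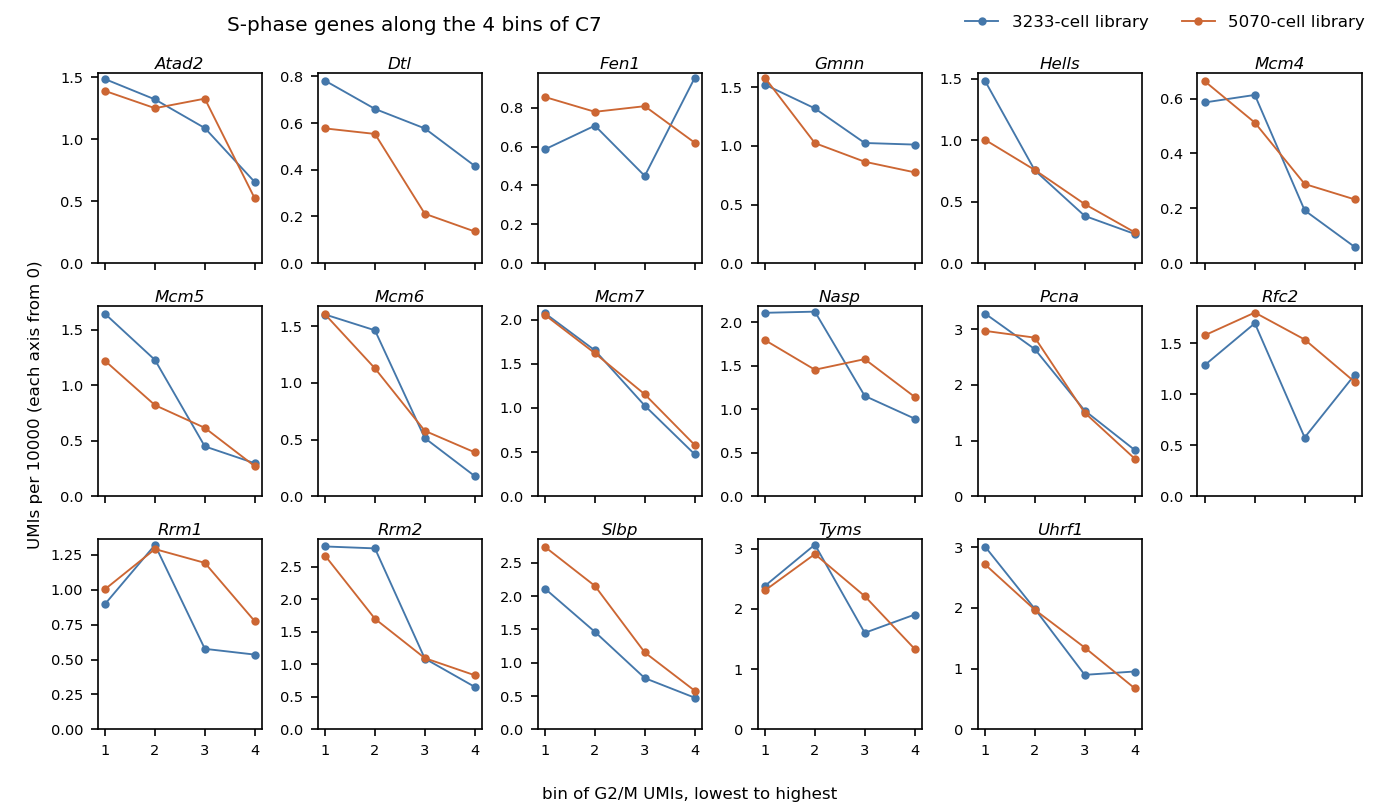
Level of 17 S-phase genes (those named by the rule with at least 100 thinned UMIs) in UMIs per 10000 over the 4 bins of C7, from the lowest to the highest G2/M UMIs, for each library; no error bars are drawn. Mcm4, Mcm5, Mcm6 and Hells fall steeply, and Tyms, Rfc2 and Rrm1 peak in the second bin from the left.

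With C6 added to C7, the bins covered 0 to 5, 6 to 16, 17 to 40 and 41 to 135 G2/M UMIs, and the S-phase level rose and fell, at 6.80, 23.0, 39.9 and 18.2 in the smaller library and 7.65, 23.7, 35.9 and 19.9 in the larger. The third bin was the highest for 29 genes in both libraries. Mcm4 alone was highest in the second bin in both. Of the 30 S-phase genes with at least 100 thinned UMIs in these cells, 23 were highest in the third bin in both libraries, against 10.4% of all such genes, and 1 in the second, against 4.66%.

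Over all kept cells, the larger library had more S-phase transcripts, at 10.6 UMIs per 10000 (10.5 to 10.7) against 9.36 (9.27 to 9.44), a log2 ratio of 0.18 (0.16 to 0.20). Which of the libraries is the irradiated one depends on the source, as given above. The ratio was above 0 for 36 of 39 genes, against 39.2% of all genes. Its range lay above 0 for 20, against 13.7%, and below 0 for 0, against 25.2%. Taking 0.32 log2 units as the smallest difference to count, 3 of 39 S-phase genes were higher, Uhrf1 at 0.47 (0.36 to 0.58), Tyms at 0.39 (0.29 to 0.50) and Fen1 at 0.33 (0.18 to 0.49), against 5.02% of all genes, and 0 of 39 lower, against 19.2%. The median log2 ratio was 0.19 for the S-phase genes and -0.05 for all genes. In all kept cells the summed ratio was 0.22 for the other replication genes and 0.37 for the G2/M genes.

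More cells of the larger library were in the clusters with these transcripts. C7 held 6.12% of the smaller library (5.32 to 7.01) and 9.82% of the larger (9.02 to 10.7), and C6 held 6.46% (5.64 to 7.37) and 9.96% (9.15 to 10.8). The log2 ratio of the share in C7 was 0.68 (0.36 to 1.004). With dividing cells taken as those with at least 5 thinned G2/M UMIs it was 0.0587 (-0.0382 to 0.156), within counting error, but that definition took 46.3% and 48.8% of all cells. In the resting clusters with C6, the S-phase level was 6.27 (6.20 to 6.34) and 7.2 (7.13 to 7.27), which is 0.20 log2 units higher in the larger library (0.17 to 0.23). Without C6 it was 5.44 (5.37 to 5.51) and 5.73 (5.66 to 5.79), with a ratio of 0.07 (0.04 to 0.11). At least 5 thinned S-phase UMIs were found in 13.9% (12.8 to 15.2) and 19.4% (18.3 to 20.5) of all cells, and without thinning in 69.8% and 67.2%.

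Within C7, by contrast, the S-phase level was lower in the larger library, with a log2 ratio of -0.19 (-0.22 to -0.15). The ratio was below 0 for 33 of 39 genes, against 45.5% of all genes. Its range lay below 0 for 12, against 5.71%, and above 0 for 0, against 7.56%. The median was -0.19 for the S-phase genes and 0.02 for all genes. At least 0.32 log2 units lower were 8 of 39, against 6.52% of all genes, and at least 0.32 log2 units higher 0 of 39, against 11.0%. The 8 were Ung at -0.70 (-1.09 to -0.31), Chaf1b at -0.58 (-1.16 to 0.01), Hells at -0.51 (-0.73 to -0.28), Dtl at -0.51 (-0.78 to -0.23), Ccne2 at -0.43 (-0.88 to 0.01), Pcna at -0.43 (-0.56 to -0.29), Rad51ap1 at -0.40 (-0.78 to -0.02) and Mcm7 at -0.35 (-0.52 to -0.17), of which Chaf1b and Ccne2 lay within counting error. The highest were E2f8 at 0.26 (-0.16 to 0.70), Exo1 at 0.17 (-0.27 to 0.61), Ubr7 at 0.01 (-0.41 to 0.45) and Fen1 at 0.01 (-0.22 to 0.25), all within counting error. By role, the ratio was -0.27 (-0.35 to -0.19) for the helicase, -0.19 (-0.26 to -0.12) for histones and chromatin, -0.19 (-0.29 to -0.09) for fork protection and repair, -0.17 (-0.25 to -0.09) for the polymerases and clamp, -0.12 (-0.21 to -0.03) for nucleotides and -0.07 (-0.32 to 0.18) for regulators and the centromere. The other replication genes had -0.09 (-0.13 to -0.05) and the G2/M genes 0.15 (0.13 to 0.17).

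The make-up of C7 differed in value as well, though the intervals of the shares overlap. In the smaller library 32.3% of C7 cells (25.9 to 39.3) were in the lowest bin of G2/M UMIs and 21.2% (15.7 to 27.6) in the highest, whereas in the larger it was 23.5% (19.8 to 27.5) and 25.9% (22.1 to 29.99). By bin, the log2 ratio of the S-phase level was -0.07, -0.12, 0.37 and -0.10. With the 4 bins given equal weight in each library, a value chosen after the data were seen, it was -0.0006. The bins hold thinned cells, which count equally, whereas in the ratio of -0.19 for C7 cells count by their UMIs. As a mean over cells that ratio was -0.15. The distance from -0.19 to -0.0006 thus includes the change in how cells are weighted, besides that of the bins. The third bin, with 39 and 130 cells, was alone in lying above 0, and the equally weighted value rests on it. Median depth in C7 was 29525.5 and 24077 UMIs per cell, and cells with at least 2 thymocyte-marker UMIs made up 10.6% and 8.63% of it. Without such cells the ratio was -0.12. The direction also differed when dividing cells were taken as all cells with at least 5 thinned G2/M UMIs, whatever their cluster. These were 46.3% and 48.8% of the libraries and had a ratio of 0.22, near the 0.18 of all kept cells. In them 6 genes were at least 0.32 log2 units higher and 0 lower, and the share of all genes was not counted. The part of depth and of transcripts from attached cells in the ratio was not tested.

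**Figure D4:**
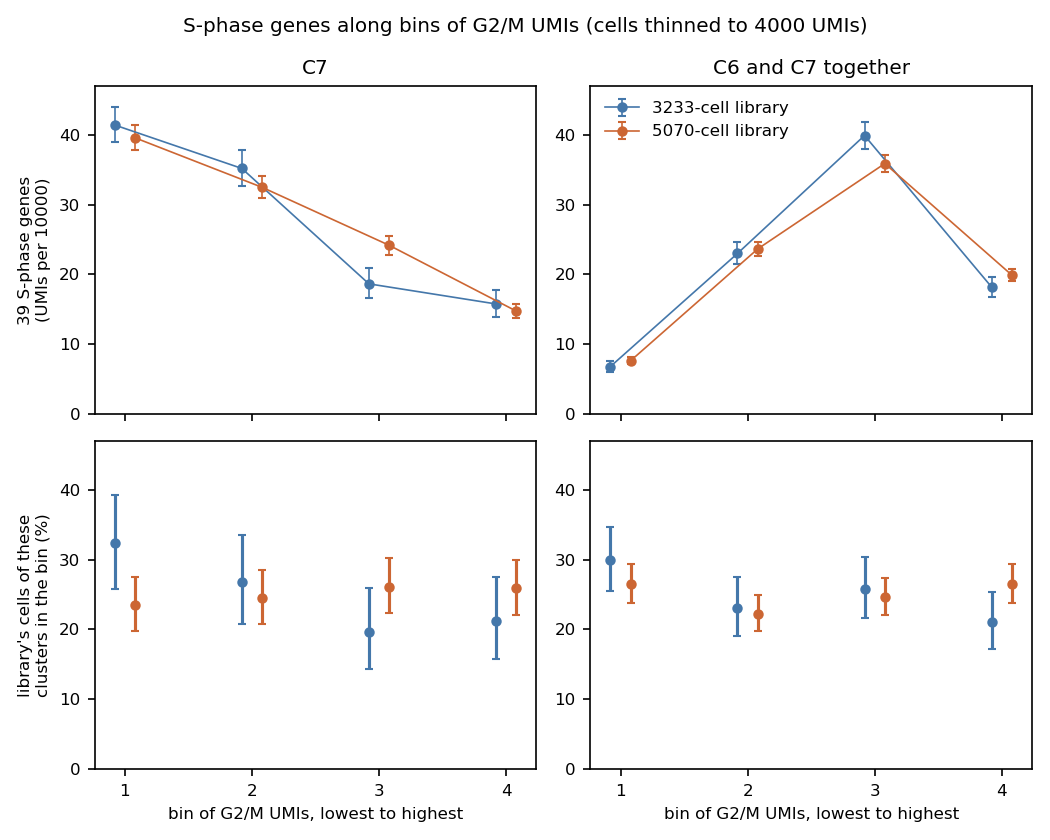
S-phase level in UMIs per 10000 (upper panels, with 95% counting intervals) and share of the library's cells of the plotted clusters (lower panels, with exact binomial 95% intervals) over 4 bins of G2/M UMIs, in C7 and in C6 with C7. In C7 the level falls along the bins, from 41.4 to 15.8 and from 39.6 to 14.7. The lowest bin holds 32.3% of the C7 cells of the smaller library and 23.5% of those of the larger, with overlapping intervals.

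Outside C7, Uhrf1 was higher in the larger library both in C6 and in the other resting clusters. In C6 the summed ratio was 0.10 (0.04 to 0.17), with 5 of 36 S-phase genes at least 0.32 log2 units higher, against 7.47% of all genes, and 3 of 36 at least 0.32 log2 units lower, against 10.1%. The range lay above 0 for Slbp, Tipin, Tyms and Uhrf1, the last at 0.54 (0.26 to 0.83), and below 0 for Pold3 at -0.61 (-1.11 to -0.11), against 4.51% and 4.54% of all genes. In the resting clusters without C6, 7 of 38 were at least 0.32 log2 units higher, against 5.55% of all genes, and 2 of 38 at least 0.32 log2 units lower, against 16.4%. Uhrf1 had 0.65 (0.44 to 0.86), Mcm5 0.45 (0.18 to 0.73), Cdca7 0.44 (0.08 to 0.79), Hells 0.42 (0.12 to 0.73), Mcm6 0.33 (0.13 to 0.54), Tyms 0.24 (0.01 to 0.47) and Mcm7 0.21 (0.04 to 0.37), all with a range above 0, against 12.3% of all genes. Of these, Hells, Mcm5, Mcm6, Mcm7 and Uhrf1 had a range below 0 in C7. Below 0 were E2f8 at -0.75 (-1.21 to -0.30) and Blm at -0.41 (-0.74 to -0.08), against 20.9%. Single resting clusters of 100 or more cells other than C6 ranged in the summed ratio from -0.11 (-0.20 to -0.03) in C2, led by S100a9 and S100a8, to 0.29 (0.06 to 0.52) in C10, led by keratinocyte genes such as Spink5. It was 0.26 (0.16 to 0.36) in C1, with much Ccl21a, and 0.14 (0.07 to 0.21) in C5. In C1, Uhrf1 was at 0.0364 and 0.114 UMIs per 10000, Hells at 0.0569 and 0.162 and Mcm6 at 0.164 and 0.331. Cells with at least 10 thinned S-phase UMIs made up 0.922% and 3.55% of C1. These genes were also higher in the larger library in C5, but not in every resting cluster. In C0, Uhrf1 was at 0.0439 and 0.0376, Hells at 0.0746 and 0.0529 and Mcm6 at 0.169 and 0.151.

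**Figure D5:**
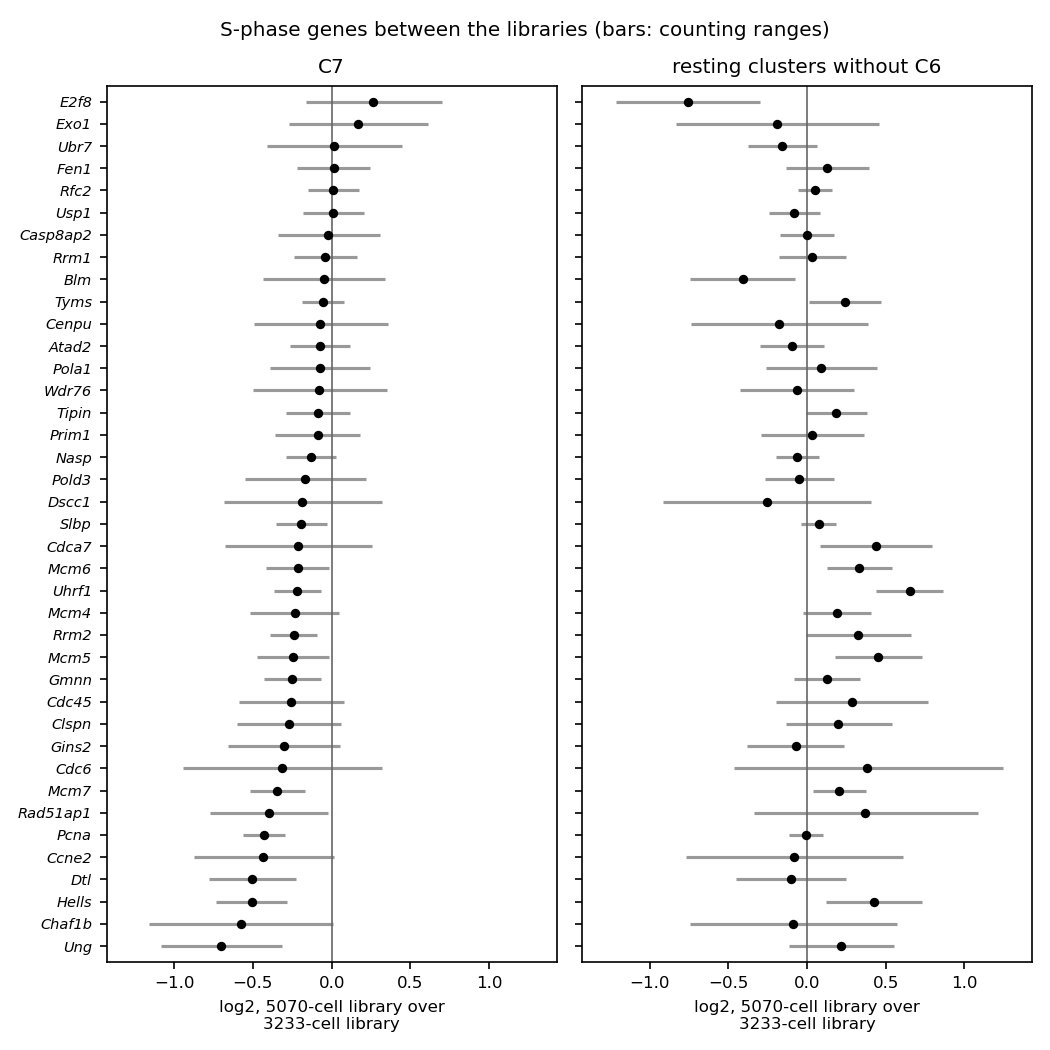
Log2 ratio of each S-phase gene between the libraries (larger over smaller) in C7 (left) and in the resting clusters without C6 (right), ordered by the value in C7, with bars for the counting ranges. In C7, 33 of 39 points lie left of 0, whereas in the resting clusters Uhrf1, Mcm5, Hells and Mcm6 lie right of it.

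C11, with both thymocyte and cTEC markers, differed more than any other cluster of 100 or more cells, with a ratio of -0.70 (-0.81 to -0.60) on 36 and 110 cells. Its G2/M level was 64.1 and 37.2 UMIs per 10000, and its other replication genes had a ratio of -0.61. Thymocytes also replicate their DNA, and which of the transcripts in C11 came from them cannot be told apart here. Left out of all kept cells, C11 moved their ratio from 0.18 to 0.21.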

How the data were processed

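The authors trimmed the reads with fastp and aligned and counted them with Cell Ranger against mm10 (version 5.0.1 per the file headers, 5.1 per the labels' processing notes). The labels give 10x 3′ chemistry v2 and the study's methods v3. The deposited matrices hold raw UMI counts per gene and barcode, 4937 and 7167 barcodes. Reads near the 3′ end were counted, so levels are not compared between genes.

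Kept cells had between 2000 and 7500 detected genes and under 15% mitochondrial UMIs, as the study's methods state, which left 65.5% and 70.7% of the barcodes. Clusters were rebuilt with Seurat 5.3.0 in R 4.3.3 (genes in at least 5 cells, 3000 variable genes, 2000 anchor genes, 20 components, resolution 0.5) with the 39 genes left out of the variable and anchor genes, so they need not be those of the study. No doublet caller was run; the limit of 7500 genes alone bears on doublets.

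UMIs were summed per library and cluster and divided by all UMIs, times 10000. Ratios are log2 of such levels. Each range of a ratio runs between opposite ends of the exact Poisson 95% intervals of its 2 levels, and shares have Clopper-Pearson 95% intervals. Ranges of ratios are therefore wider than 95% counting intervals, but they leave out variation between cells. With 1 library per condition no test was made. Genes with under 100 UMIs over the cells compared were left out of counts by fold. For shares and bins, cells were thinned to 4000 UMIs, which left out 0 and 5 cells. The calculation was tested on simulated counts of C7 with 200 genes changed by 2-fold or more. After simulation 10051 genes had enough UMIs, among them 184 of the changed genes, and 184 had the right sign. The check does not bear on smaller differences, such as the ratios of S-phase genes between the libraries in C7. Python 3.11.15, numpy 2.4.6, scipy 1.17.1, pandas 2.3.3 and matplotlib 3.10.9 were used. Promoters were read from a RefSeq table of GRCm38.p6, and gene positions from a GRCm38 annotation.

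The S-phase genes and the other lists were chosen with earlier results of these data known. Genes given in full were the 10 with the most UMIs in C7, the 4 of highest and the 4 of lowest ratio between the libraries in C7, and the 4 with the largest and the 4 with the smallest fold between the lowest and the highest bin, 22 in all; other genes were accounted for by role. Cells with at least 10 UMIs, C6 on its own and the genes set beside other clusters were chosen after their values were seen.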

Additional observations from a re-analysis of the deposited data

Results flagged for a closer look

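The summed ratio and 5 of the 39 S-phase genes differed in opposite directions between the libraries inside and outside the dividing cluster. The share of all genes that did so was not counted, so the 5 cannot be read as a trait of the list. The summed log2 ratio, larger over smaller library, was -0.19 in C7 and 0.0747 in the resting clusters without C6. For the genes whose counting ranges lay clear of 0 in both, it was -0.25 and 0.45 for Mcm5, -0.35 and 0.21 for Mcm7, -0.22 and 0.33 for Mcm6, -0.22 and 0.65 for Uhrf1 and -0.51 and 0.42 for Hells. Of all 39 genes, 22 were above 0 and 17 below in the resting clusters without C6, and the share of all genes was not counted. The median log2 ratio there was 0.04 for the S-phase genes and -0.05 for all genes with enough UMIs. With dividing cells taken as those with at least 5 G2/M UMIs, 46.3% and 48.8% of the libraries, the summed ratio was 0.22. That of all 5 genes was then above 0, from 0.14 for Mcm7 to 0.44 for Uhrf1. Over equally weighted bins of C7, which hold thinned cells that count equally, the summed ratio was -0.0006. The difference between the 2 ratios was not tested, since each condition is 1 library.

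Barcodes left out for exceeding the upper limit of detected genes also held these transcripts. The 32 such barcodes of the smaller library had 19.0 S-phase UMIs per 10000 (18.4 to 19.7) and the 21 of the larger had 19.6 (18.8 to 20.4). Their G2/M level was 66.0 and 75.1 and their thymocyte marker level 38.8 and 44.5.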

How the results depend on the processing

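All values are log2 ratios unless stated. C7 over the resting clusters, 2.28 in the smaller and 1.90 in the larger library, became 2.0 and 1.69 at resolution 1.0, 2.04 and 1.69 with a limit of 1000 detected genes, 2.05 and 1.71 with no upper limit, 2.36 and 2.03 as a mean over cells, 2.36 and 1.95 without mitochondrial, ribosomal protein and S-phase genes in the denominator, 1.4 and 1.58 with dividing cells defined by 5 or more G2/M UMIs, 2.49 and 2.23 with C6 left out of the resting clusters and 2.22 and 2.02 with C6 added to C7. In the smaller library it was 2.21 without integration and 2.24 without cells with thymocyte-marker UMIs. The ratio between the libraries over all kept cells, 0.18, became 0.14 with no upper limit, 0.15 with under 10% mitochondrial UMIs, 0.24 as a mean over cells, 0.24 without cells with thymocyte-marker UMIs and 0.21 without C11. In C7, -0.19 became -0.14 at resolution 1.0, -0.15 as a mean over cells and -0.12 without cells with thymocyte-marker UMIs. It became -0.12 with C6 added and -0.0006 over equally weighted bins. The value over bins also uses thinned cells that count equally, so its distance from -0.19 includes that change of weighting. With the G2/M definition the ratio in C7 reversed to 0.22. That definition also reversed Dtl to 0.0686, Gmnn to 0.23, Hells to 0.18, Mcm5 to 0.29, Mcm6 to 0.29, Mcm7 to 0.14, Pcna to 0.0532, Rrm2 to 0.28, Slbp to 0.17, Uhrf1 to 0.44 and Ung to 0.18. It takes cells from every cluster, 46.3% and 48.8% of the libraries, and the cause was not tested. The resting ratio, 0.20, became 0.17 with the S-phase genes kept in the clustering, 0.15 without integration, 0.0398 with the G2/M definition and 0.0747 with C6 left out or added to C7. The ratio of the share of dividing cells, 0.68, became 0.0587 (-0.0382 to 0.156) with the G2/M definition, and that of cells with at least 5 S-phase UMIs, 0.47, became 0.18 at 3 and 0.72 at 10 UMIs. The count of 8 genes at least 0.32 log2 units apart in C7, all 8 lower in the larger library, became 3 with C6 added and 6 with the G2/M definition, all 6 higher. The share of all genes was not counted under either setting. The count at least 2-fold higher in C7, 34 in both libraries, ran from 31 to 36. Settings that leave out C6, C11 or weight the bins were chosen after seeing the data. Of 242 values of single genes, 220 moved by less than their counting range, 11 moved and 11 reversed.

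Depth limits the bins, where single genes rest on few UMIs. No paired analysis was possible because each condition is 1 library.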
